A study of Mus musculus with 40 samples.

Results

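Cyp2e1, the gene of cytochrome P450 2E1, was followed in 20 aorta and 20 kidney libraries of mice, as 1 gene of the 55335 in the aortic table and of the 55382 in the renal table. It was chosen by its aortic counts, which were lower under high fat diet (HFD) than under standard fat diet (SFD), so its aortic HFD values are given as a description, without a test. All comparisons of its aortic values, between genotypes as well as between diets, use the libraries of that choice or lie in the same table, and are given as descriptions too. Comparisons in kidneys were tested.

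The study asked whether the epidermal growth factor receptor (EGFR) of endothelial cells (EC) takes part in vascular and renal changes of diet-induced obesity. EC-EGFR-KO mice carried floxed Egfr alleles and Tek-cre, a Cre recombinase driven by the Tie2 promoter, which is active in endothelium and also in blood cell lineages. EC-EGFR-WT controls carried the same Cre without LoxP sites, on a C57BL/6 background as well. After 7 days of mixed chow at about 5 weeks of age, HFD mice received 60% of energy from fat for 18 weeks from an age of 6 weeks, and SFD mice received 10%. RNA came from unsorted tissue of both organs, the aorta after removal of surrounding fat and connective tissue, with 5 libraries for each genotype, diet and tissue (8 groups, 40 libraries). The sources used here give neither the sex of these animals nor the hour of collection.

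Cytochrome P450 2E1 sits in the membrane of the endoplasmic reticulum and receives electrons from P450 reductase (Por) and cytochrome b5 (Cyb5a). It oxidizes ethanol, acetone, fatty acids and small organic solvents, and is known as a source of reactive oxygen species. The liver is its main site. In the kidney it is known from proximal tubule cells, and in mice its renal level depends on androgens, while fasting, diabetes and ketone bodies are known to change it in liver. Adipocytes also express it.

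The gene (ENSMUSG00000025479) lies on the plus strand of chromosome 7, from 140763739 to 140774987 in GRCm38, and no other annotated gene overlaps it. Transcript Cyp2e1-201 has 9 exons and starts at 140763739, and Cyp2e1-202 has 8 exons and starts at 140763819, which is also the RefSeq start. The stretch before the upstream start is shown because the same gene was measured at very different levels in the 2 tissues. It covers chr7:140763569-140763738 and is credited to RefSeq, build GRCm38.p6.
Cyp2e1 upstream: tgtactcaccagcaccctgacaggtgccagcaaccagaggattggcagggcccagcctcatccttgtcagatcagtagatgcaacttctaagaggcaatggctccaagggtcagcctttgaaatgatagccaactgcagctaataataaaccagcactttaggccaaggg
A short run further downstream, chr7:140763776-140763805, holds the letters of a TATA box, given in capitals.
Cyp2e1 TATA run: tcaacgacacgtTATAAAatccttgtttct
These letters begin 31 bases before the RefSeq start. TATAAA was found on either strand in 13.6% of 32851 RefSeq promoter windows of 300 bases. The letters TTGCGCAA (a CEBP site) and AGGTCA (a site for nuclear receptors) were searched on both strands and are not in this window, and 0.183% and 16.3% of all windows hold them.

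Total counts on genes ranged from 17520161 to 36452741 in aortas and from 19643033 to 48833447 in kidneys. Levels are given in FPM, a gene's counts per Mio of its library's total after TMM scaling. Libraries R-1 (WT SFD) and R-12 (KO SFD) of aortas differed by less than the sampling noise, and so did a1 (KO HFD) and a12 (WT HFD) of kidneys (median chi-square 0.0239 and 0.0226, where noise alone gives 0.455 and the next closest pairs reach 1.84 and 1.86). Each pair carries labels of both genotypes, so these libraries were kept under their labels, and values without both are given where they bear on a result. Acta2 and Myh11 of smooth muscle reached at least 15790 and 7679 FPM in every aorta, and Slc34a1 of the proximal tubule at least 4481 FPM in every kidney against at most 0.109 FPM in any aorta. Of 8 hepatocyte genes, only Ahsg passed the expression filter in aortas, and Alb was at most 4.51 FPM there and at most 70.1 FPM in kidneys. Egfr, counted in whole tissue where other cells express it too, had a log2 fold change of KO against WT under SFD of 0.15 in aortas (SE 0.15) and -0.09 in kidneys, so it does not check the deletion in endothelium.

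In aortas, Cyp2e1 was a low-abundance RNA and differed widely between mice of 1 group. In EC-EGFR-WT aortas under SFD, it had 9.26, 11.6, 22.8, 27.0 and 32.1 FPM (211 to 730 counts). Under HFD, the values were 0.702, 0.825, 2.01, 2.27 and 3.13 FPM, from 12 to 56 counts. The highest HFD library thus lay below the lowest SFD library, and the fitted ratio of HFD to SFD was 0.0875 (log2 fold change -3.51, SE 0.55). In the whole aortic table, 0.00661% of 15122 genes passed the criteria for HFD in WT (adjusted p under 0.05, fold change over 1.5 and over 5 FPM in a group); Cyp2e1 is that gene, as its choice fixed.

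EC-EGFR-KO aortas had lower means than EC-EGFR-WT aortas under both diets, with overlapping values, and were again separated by diet. Under SFD they had 3.01, 4.30, 6.18, 11.4 and 16.4 FPM, from 64 to 406 counts. Under HFD they had 0.328, 0.693, 0.987, 1.66 and 1.96 FPM. Again no HFD library reached an SFD library of the same genotype, with a log2 fold change of -2.85 (SE 0.55). Over the whole aortic table, 0 of 15122 genes passed the criteria for HFD in KO with edgeR, 690 had an unadjusted p under 0.05 and the DESeq2 Wald test called 2, and nothing is read from these counts about Cyp2e1. The lowest KO HFD value, from R-16, rests on 6 counts, whose 95% Poisson interval of 2.20 to 13.1 covers counting error only. The coefficient of variation was between 47.9% and 67.3% in the 4 aortic groups. The HFD effects of KO and WT differed by 0.66 on the log2 scale (SE 0.74), which is less than its own error. Leaving out 1 library moved this difference to between 0.36 (without R-18) and 1.06 (without R-14).

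**Figure D1:**
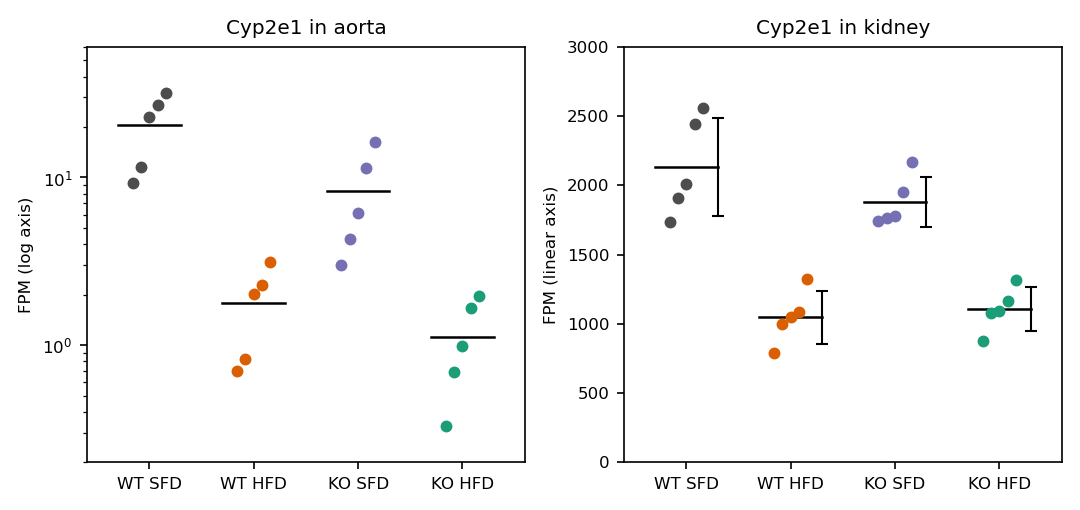
Cyp2e1 in FPM in each library (points), with group means (horizontal lines), for aortas on a logarithmic axis and for kidneys on a linear axis with the standard deviation as error bar (n = 5 per group). HFD libraries lie below all SFD libraries of their genotype in both tissues, and kidneys range from 787 to 2563 FPM where aortas range from 0.328 to 32.1 FPM.

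Under SFD, aortic Cyp2e1 had a lower mean in EC-EGFR-KO than in EC-EGFR-WT mice, and the groups overlapped. KO libraries were lower than WT libraries in 22 of 25 pairs, with a log2 fold change of -1.31 (SE 0.49). No gene of the aorta passed an adjusted p of 0.05 in this comparison with edgeR, and 345 had an unadjusted p under 0.05. This comparison shares its WT SFD libraries with the contrast for which Cyp2e1 was chosen, and without R-1 and R-12 the log2 fold change was -1.61 (SE 0.56). Under HFD, KO and WT aortas differed by -0.65 (SE 0.56), with WT higher in 19 of 25 pairs. Cell type lists varied with genotype as well: all 20 white adipocyte genes had lower means in KO under SFD (median -0.83) and 17 of 20 under HFD (-0.49), and all 7 macrophage genes had higher means under both diets (0.24 and 0.70), none with an adjusted p under 0.05 in edgeR. All 6 lymphoid genes had higher means in KO under SFD (2.46) and HFD (1.90), where R-11 and R-16 stood apart. All 11 immediate-early genes, which respond to handling of tissue, had higher means in KO under SFD (0.57) and HFD (1.66). Their means were also higher under HFD than SFD in KO (1.14). In edgeR none of these had an adjusted p under 0.05. The DESeq2 Wald test called 1 immediate-early gene for KO under HFD and 1 for HFD in KO. Nothing is read from these DESeq2 counts.

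Adipocytes express Cyp2e1, and genes of white adipocytes varied in the same aortas. Of the 20 listed genes, 18 had lower means under HFD in WT and 15 in KO. Their median log2 fold changes were -0.66 and -0.23, beside 0.01 and -0.01 over all genes, and none passed the criteria with edgeR. The DESeq2 Wald test called 2 of them in WT, a count given without its share over all genes, so nothing is read from it. The summed level of the 20 genes ranged from 1089 to 1685 FPM in WT SFD, 886 to 1317 in WT HFD, 813 to 1147 in KO SFD and 842 to 1029 in KO HFD. Adipoq, the adipocyte hormone adiponectin, was detected in every aorta, at 8.73 to 37.0 FPM in WT SFD, 0.761 to 11.7 in WT HFD, 4.14 to 12.999 in KO SFD and 2.72 to 6.12 in KO HFD. Adipoq means were lower under HFD in both genotypes, while Plin4, a lipid droplet protein that muscle also makes and the list's highest FPM, had group means of 447 to 477 FPM and log2 fold changes of 0.09 in both.

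With the mean of these 20 genes as a covariate, the log2 fold change of Cyp2e1 under HFD was -2.18 in WT (SE 0.42) and -2.14 in KO (SE 0.36). The part of adipocyte RNA in the aortic values was not tested otherwise, and in unsorted aortic tissue fewer cells of a type and less RNA per cell cannot be told apart. The difference between KO and WT under SFD was -0.07 with the same covariate (SE 0.40). Cfd (adipsin) and Retn (resistin) had log2 fold changes of -2.93 and -2.87 in WT, and with both left out of the score the value for Cyp2e1 in WT was -2.44. No gene of the brown adipocyte, endothelium, smooth muscle, fibroblast, lymphoid or macrophage lists passed the criteria under HFD in aortas with edgeR. All 7 macrophage genes had lower means under HFD in WT (median -0.45) and 2 of 7 in KO.

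In kidneys, Cyp2e1 was an abundant RNA and fell under HFD in both genotypes. EC-EGFR-WT kidneys had 1738, 1911, 2012, 2444 and 2563 FPM under SFD. Under HFD they had 787, 997, 1050, 1084 and 1321 FPM. No HFD value reached an SFD value, and expression fell 2.04-fold (log2 fold change -1.03, SE 0.13, 95% interval -1.31 to -0.74, adjusted p = 5.46e-05 in edgeR). An exact two-sided permutation test of this gene gave p = 0.00794, the smallest that 5 libraries against 5 allow.

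EC-EGFR-KO kidneys showed the same order. They had 1741, 1762, 1781, 1951 and 2169 FPM under SFD. Under HFD the values were 880.0, 1082, 1095, 1169 and 1321 FPM. All 25 pairs were lower under HFD and expression fell 1.70-fold (log2 fold change -0.76, SE 0.13, 95% interval -1.04 to -0.48, adjusted p = 0.000966 in edgeR, exact permutation p = 0.00794). The highest HFD values of both genotypes, 1321 FPM each, come from the near-identical libraries a1 and a12. Without these, the log2 fold changes were -1.12 in WT and -0.83 in KO. Among 15943 renal genes, 2.18% passed the criteria in WT, with 1.27% higher and 0.909% lower under HFD. In KO it was 2.16%, with 1.23% higher and 0.928% lower. By adjusted p under 0.05 alone, 6.71% passed in WT, 3.03% upward and 3.68% downward, and 6.34% in KO, 3.16% upward and 3.18% downward. Cyp2e1 ranked at place 61 and 212 by p.

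No difference between genotypes in renal Cyp2e1 went beyond the spread between libraries. Under SFD, KO kidneys differed from WT kidneys by -0.18 on the log2 scale (95% interval -0.46 to 0.10, adjusted p = 1.00 in edgeR, exact permutation p = 0.214). Under HFD the difference was 0.08 (95% interval -0.20 to 0.36, adjusted p = 0.897 in edgeR, exact permutation p = 0.595). The HFD effect in KO minus that in WT was 0.26 (SE 0.19, 95% interval -0.13 to 0.66, adjusted p = 1.00 in edgeR). These intervals still allow a genotype effect on the HFD response of up to 0.66 on the log2 scale. In the same fits, 0 genes had an adjusted p under 0.05, while 426, 546 and 285 had an unadjusted p under 0.05. The HFD groups of the 2 genotypes hold the near-identical libraries a1 (KO) and a12 (WT), at 1321 FPM each. These intervals count them as separate libraries. Without both, mean Cyp2e1 under HFD was 1057 FPM in KO (SD 124) and 979 FPM in WT (SD 133).

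**Figure D2:**
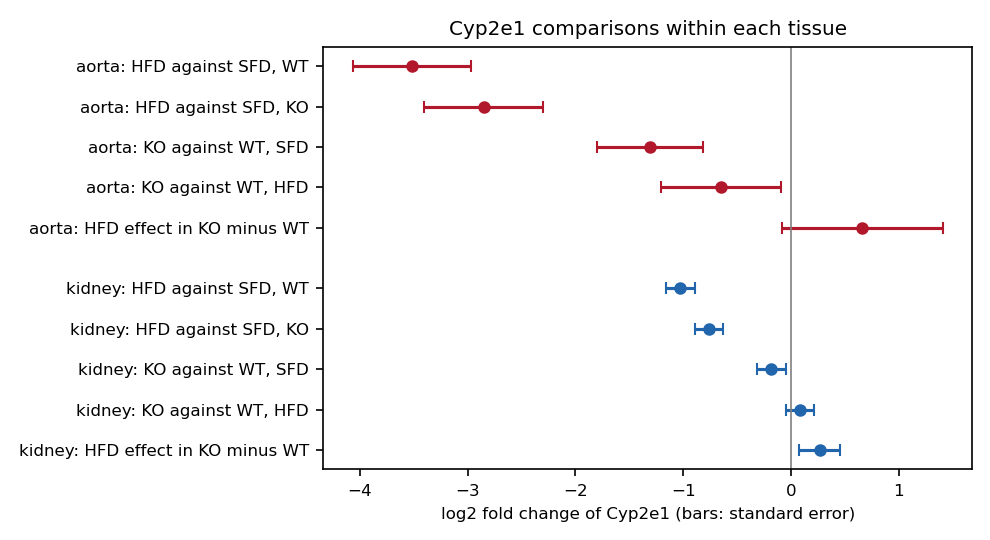
Log2 fold change of Cyp2e1 (points) with its standard error (bars) in the 5 comparisons within aortas and the 5 within kidneys, from 1 edgeR fit of 20 libraries per tissue. The HFD effects lie at -3.51 and -2.85 in aortas and at -1.03 and -0.76 in kidneys, and the differences between genotypes in kidneys lie between -0.18 and 0.26.

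Ordered by mean level, the kidney groups were WT SFD (2134 ± 354 FPM, SD, n = 5), KO SFD (1881 ± 181), KO HFD (1109 ± 160) and WT HFD (1048 ± 191). Of these neighbours, only KO SFD and KO HFD did not overlap (25 of 25 pairs). The aortic order was WT SFD (20.5 ± 9.83 FPM, SD, n = 5), KO SFD (8.26 ± 5.56), WT HFD (1.79 ± 1.02) and KO HFD (1.12 ± 0.674), and all 3 neighbours overlapped, KO SFD and WT HFD in 1 of 25 pairs. The tables were normalized separately, but the gap between tissues far exceeds any group difference: kidney means were 104 times the aortic mean in WT SFD and 987 times in KO HFD. Ranked per length among the genes of each library, Cyp2e1 took place 31 to 49 in SFD kidneys and 68 to 120 in HFD kidneys, against 3331 to 10955 in SFD aortas and 10744 to 14354 in HFD aortas. Whether the HFD effect differs between the tissues was not tested.

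Within the CYP2 family of P450 enzymes, HFD changed the renal order. Per length, mean Cyp2e1 was 989 FPKM (FPM per kilobase of exon) in WT SFD and Cyp2j5, an arachidonic acid epoxygenase, 736 FPKM. Cyp2e1 was above Cyp2j5 in every SFD kidney and below it in every HFD kidney, where its means were 486 FPKM in WT and 514 FPKM in KO against 710 and 723 FPKM for Cyp2j5. Cyp2j5 itself had log2 fold changes of -0.05 and -0.01, neither with an adjusted p under 0.05. Of 14 tested genes of the CYP2 list, which includes Cyp2e1 but does not hold every member of the family (Cyp2c69 is in another list), 2 rose and 2 fell in WT, and 1 rose and 1 fell in KO. Over all renal genes, 1.27% rose and 0.909% fell in WT, and 1.23% and 0.928% in KO. Cyp2d26 rose by 1.17 in WT and 1.63 in KO (log2), from 108 to 244 FPM and from 89.5 to 277 FPM. Cyp2d22 rose in WT alone (0.66), where KO had 0.46, and Cyp2j9 fell in WT alone (-0.72), where KO had -0.52; the difference between genotypes was not called for any gene. The androgen- and xenobiotic-responsive Cyp2a5 had -1.35 and -1.38, with adjusted p-values of 0.106 and 0.0989 in edgeR. In aortas, 7 members could be tested, and Cyp2d22 was at 36.7 to 41.8 FPM in the group means, with -0.15 and -0.13 under HFD. Cyp2f2 had an adjusted p of 0.0179 in WT aortas with edgeR (log2 fold change -3.29) but no group mean above 1.24 FPM.

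Of the partners that supply electrons and heme, none of 9 genes tested passed the criteria in kidneys of either genotype, with medians of -0.12 and -0.03 beside 0 over all genes. Por, the reductase, had -0.27 and -0.21, and Cyb5a -0.36 (adjusted p = 0.0191 in edgeR, under the fold change of 1.5) and -0.24. Genes that handle ethanol, acetaldehyde and acetone were counted against the 2.18% and 2.16% called among all renal genes: of 13 tested, 1 rose and 1 fell in WT and 1 rose in KO. Adh1, the alcohol dehydrogenase, fell in WT from 681 to 436 FPM (log2 fold change -0.64), with -0.37 in KO (adjusted p = 0.109 in edgeR). Aldh1a1, a retinaldehyde dehydrogenase, rose in both (1.43 and 1.46), from 11.04 to 29.8 FPM in WT and from 11.4 to 31.5 FPM in KO. Catalase (Cat), which also oxidizes ethanol, had -0.15 and -0.26, and the mitochondrial Aldh2 had -0.01 and -0.07.

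Among ketone bodies, acetone is a substrate of cytochrome P450 2E1, and ketone bodies are known to change its level in liver. The counts in this paragraph stand beside 2.18% of all renal genes called in WT and 2.16% in KO. Of 8 genes of ketone metabolism, 1 rose and 1 fell in each genotype. The gene that fell, Bdh1, which interconverts the ketone bodies, had log2 fold changes of -0.74 in WT and -0.72 in KO. Of 15 PPAR-alpha targets, 2 rose and 1 fell in WT and 1 rose and 1 fell in KO, and the peroxisomal Ehhadh fell in both (-0.61 and -0.68). Among 13 redox genes, Gstm1, a glutathione transferase, fell in both (-0.69 and -0.96) and the secreted Gpx3 rose in KO alone past the criteria (0.61, with 0.45 in WT).

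Among the factors known to act on Cyp2e1, 12 could be tested in kidneys, of which 1 rose and 0 fell in WT and 2 rose and 1 fell in KO. The shares over all renal genes were 1.27% higher and 0.909% lower in WT, and 1.23% and 0.928% in KO. Hnf4a, a transcription factor of the proximal tubule, had log2 fold changes of -0.18 and -0.09 and did not pass the criteria. Cebpa rose in KO (0.59), where WT had 0.41. Prlr, the prolactin receptor, rose in both, from 6.48 to 48.3 FPM in WT and from 8.70 to 35.5 FPM in KO. Ghr, the growth hormone receptor, was lower in both (-0.46 and -0.54) with adjusted p-values under 0.05 but a fold change under 1.5. All 16 genes of the lists on chromosomes 9, X, Y and MT were at 0 in every library and were not measured here.

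Since renal Cyp2e1 depends on androgens in mice, genes with a known sex bias in kidney were set beside it. Of 10 male-biased genes, 4 fell and 0 rose in WT and 3 fell and 0 rose in KO, with medians of -0.68 and -0.50. Among all renal genes, 0.909% fell and 1.27% rose in WT, and 0.928% fell and 1.23% rose in KO. Odc1, the first enzyme of polyamine synthesis, fell from 2122 to 928 FPM in WT and from 2007 to 985 FPM in KO. Acsm3 fell from 669 to 189 FPM and from 609 to 168 FPM. Kap, the androgen-regulated kidney protein, fell in WT (-0.80), where KO had -0.57 (adjusted p = 0.0565 in edgeR), and Cyp4a12a, a fatty acid hydroxylase, fell in WT (-1.35), where KO had -1.07 (adjusted p = 0.0537 in edgeR). Slc7a13, an amino acid transporter of the late proximal tubule, fell in KO (-0.83), where WT had -0.56.

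Of the 9 genes tested in the list written as female-biased, 5 rose and 2 fell in WT and 4 rose and 2 fell in KO. These counts, and those of the S3 segment below, stand beside 1.27% of all renal genes higher and 0.909% lower in WT, and 1.23% and 0.928% in KO. Slc7a12, Slc22a29, Cyp2c69 and Prlr rose in both, and Cyp4a14 in WT. The 2 that fell in both, Cyp7b1 and Slco1a1, are known as male-biased in mouse kidney, so the list was not pure. Slco1a1, an organic anion transporter, fell from 600 to 206 FPM in WT and from 525 to 215 FPM in KO. The S3 segment, the last part of the proximal tubule, had 3 of 7 genes lower and 0 higher in WT and 4 lower and 1 higher in KO, among them Slc22a7 (-1.74 and -1.62) and Atp11a (-0.67 and -0.65). The lists share genes, so their counts are not independent. Slc7a13 and Cyp4b1 are in the S3 and male-biased lists, and Cyp7b1 is in the S3 and female-biased lists. Kap is in the proximal tubule and male-biased lists, and Prlr is a listed factor as well.

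**Figure D3:**
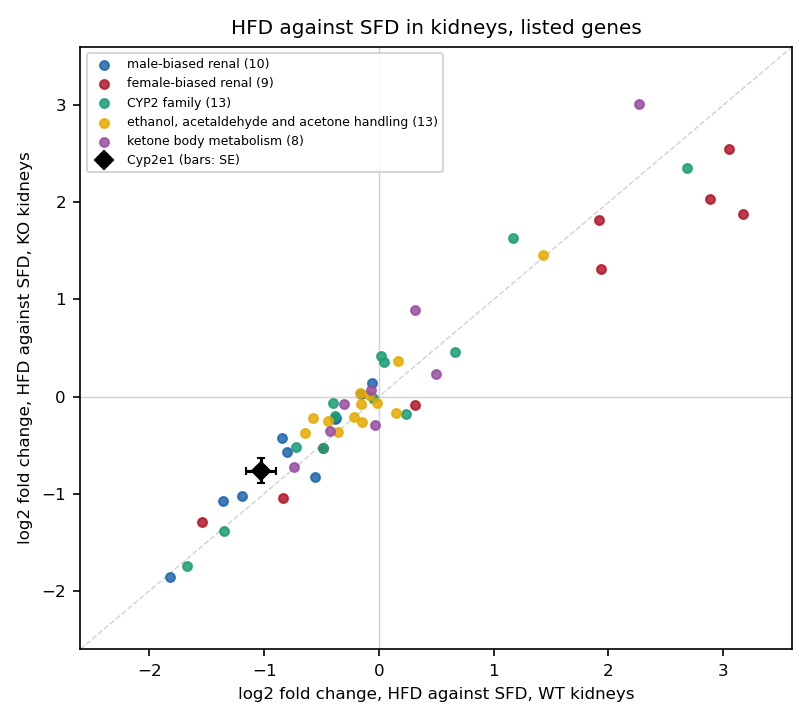
Log2 fold change under HFD in WT kidneys (horizontal axis) and in KO kidneys (vertical axis) for the tested genes of 5 lists (coloured points, number in the key) and for Cyp2e1 (black diamond, bars are standard errors); the dashed line marks equal values. Cyp2e1, at -1.03 and -0.76, lies between the male-biased genes Kap (-0.80 and -0.57) and Odc1 (-1.19 and -1.03).

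The score of the male-biased list, the mean of its centred log2 FPM, was 0.10 to 0.54 in SFD kidneys and -0.61 to -0.14 in HFD kidneys, so it did not overlap between diets. With this score as a covariate the HFD effect on Cyp2e1 was -0.48 in WT (SE 0.25, adjusted p = 0.559 in edgeR) and -0.32 in KO (SE 0.21, adjusted p = 0.457), so the call was lost. With the female-biased score, a setting added after the data were seen, it was -0.94 and -0.70 (adjusted p = 0.291 and 0.118 in edgeR). This score did not overlap between diets either, with -0.84 to 0.03 in SFD kidneys and 0.08 to 0.71 in HFD kidneys. With the score of 12 proximal tubule genes it was -0.998 and -0.79, and the call held in both. Because the male-biased score, the female-biased score and diet separate the same libraries, their parts in the value of Cyp2e1 cannot be told apart here. Immediate-early genes, which respond to handling of tissue, summed to 2027, 2306 and 2096 FPM in 3 SFD kidneys (a17, a8 and a9) and to at most 172 FPM in the others, and without these 3 libraries the HFD effects were -1.09 and -0.81.

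Genes that follow Cyp2e1 from mouse to mouse were ranked by the correlation of deviations from the group means of log2(FPM + 0.5), over the 18 libraries of a tissue outside the near-identical pair. The points share libraries and depth, and the values are descriptions. In aortas, the 10 highest of 13195 genes were Car3 (r = 0.851), Lgals12 (0.821), Pon1 (0.819), Plin1 (0.799), Pck1 (0.779), Retn (0.778), Prdm9 (0.775), Ces1d (0.764), Cfd (0.764) and Gm13563 (0.757). Car3, Plin1, Retn and Cfd belong to the white adipocyte list, Lgals12 is a galectin of adipocytes, and Ces1d is a triglyceride hydrolase of fat and liver. The lowest were Ttc23 (-0.768), St7 (-0.758), Tmem169 (-0.757), Trim8 (-0.755) and Rad18 (-0.740). Among 19 adipocyte genes the median r was 0.606, with 16 above 0, against -0.023 over all genes. Of the 7 macrophage genes, none was above 0 (median -0.429).

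Not every fat gene followed. Of the white adipocyte list, Plin4 had r = -0.383, Pnpla2 -0.0263, Slc2a4 -0.0003 and Pparg 0.0014. The brown adipocyte gene Ucp1 had 0.491. Pon1 and Pck1, both also known from liver, had means of 1.21 and 11.6 FPM over all aortas. Of the 10 followers, only Cfd and Retn had log2 fold changes under HFD as low as -2 in WT, and none passed the criteria with edgeR. The score of the adipocyte list followed Cyp2e1 with r = 0.749 over 18 libraries.

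In kidneys, the highest of 13515 genes were Them7 (r = 0.896), BC024386 (0.868), Fbxo7 (0.865), Gm30122 (0.858), Ccdc57 (0.849), Entpd8 (0.845), Dnase1 (0.845), Gm16973 (0.842), Kcnab3 (0.822) and Ctbs (0.816). Dnase1, a secreted nuclease abundant in the tubule at a mean of 829 FPM, fell under HFD in WT as Cyp2e1 did (-1.37, adjusted p = 0.00143 in edgeR), with -0.73 in KO (adjusted p = 0.0795). Them7 had -0.36 and -0.30 (adjusted p = 0.00346 and 0.0132 in edgeR), and BC024386 -0.42 and -0.41 (adjusted p = 0.00907 and 0.00993), both under the fold change of 1.5. Entpd8, Ccdc57 and Gm16973 followed Cyp2e1 between mice but had log2 fold changes of at most 0.20 in size under HFD. With a1 and a12 included, r was 0.247 for Gm16973, 0.475 for Ccdc57, 0.544 for Kcnab3, 0.592 for Gm30122 and -0.407 for Stxbp3.ps, which is among the lowest. The lowest were Kifc3 (-0.867), Kif3c (-0.812), Adcy1 (-0.810), Fam111a (-0.794) and the pseudogene Stxbp3.ps (-0.793).

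By list, renal Cyp2e1 varied with genes of the proximal tubule and opposite to those of several other cell types. The median r was 0.344 for 12 proximal tubule genes (11 above 0), 0.369 for 7 S3 genes and 0.375 for the 11 other CYP2 members, with Cyp2d9 highest (0.680). The 9 electron transfer and heme genes had the highest median of the renal lists, 0.407 with 7 above 0, Cyb5a at 0.466 and Por at 0.4075 among them. Among the 13 genes of ethanol and acetone handling it was 0.357, with Aldh9a1, an aldehyde dehydrogenase, highest (0.743). It was -0.550 for 9 endothelial genes (all below 0 but Cldn5), -0.488 for 7 macrophage genes, -0.376 for 7 fibroblast genes and 0.003 over all genes. The levels of these cell type lists by diet are given beside this, where 1.27% of all renal genes rose in WT and 1.23% in KO with edgeR. No such share is given for DESeq2, so nothing is read from its counts. Of the macrophage genes, 2 rose under HFD in WT (C1qb and Lyz2, 5 with DESeq2) and 0 in KO (1 with DESeq2), with medians of 0.75 and 0.47 and summed levels of 103 to 166 FPM in WT SFD, 135 to 196 in WT HFD, 117 to 153 in KO SFD and 138 to 196 in KO HFD. The fibroblast genes had higher means in 7 of 7 in WT and 6 of 7 in KO, with medians of 0.58 and 0.65 and none past the criteria with edgeR (1 in WT and 2 in KO by adjusted p alone, and 0 and 1 with DESeq2). Of 5 hepatocyte genes, 2 rose in WT (Ttr and Fgb) and 1 in KO (Ttr), and their summed level was 178 to 343 FPM in SFD kidneys and 484 to 977 FPM in HFD kidneys. The part of these cell types in the renal values of Cyp2e1 was not tested. The endothelial score ranged from -0.97 to 0.23 in WT SFD kidneys and from 0.01 to 0.11 in WT HFD kidneys. In KO kidneys it ranged from -0.25 to 0.14 under SFD and from 0.05 to 0.19 under HFD. The median r of the male-biased genes, whose score did not overlap between diets, was 0.181, with Kap at 0.542, Odc1 at 0.201 and Acsm3 at -0.087. Their score followed Cyp2e1 with r = 0.379, and the endothelial score with -0.629. The S3 score, whose list shares genes with the male-biased list, did not overlap between diets either (0.12 to 0.65 in SFD and -0.49 to -0.05 in HFD kidneys) and had r = 0.515. Of 10 immediate-early genes, 0 were above 0 (median r -0.493). The score of their list had r = -0.512, or -0.331 without a17, a8 and a9.

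**Figure D4:**
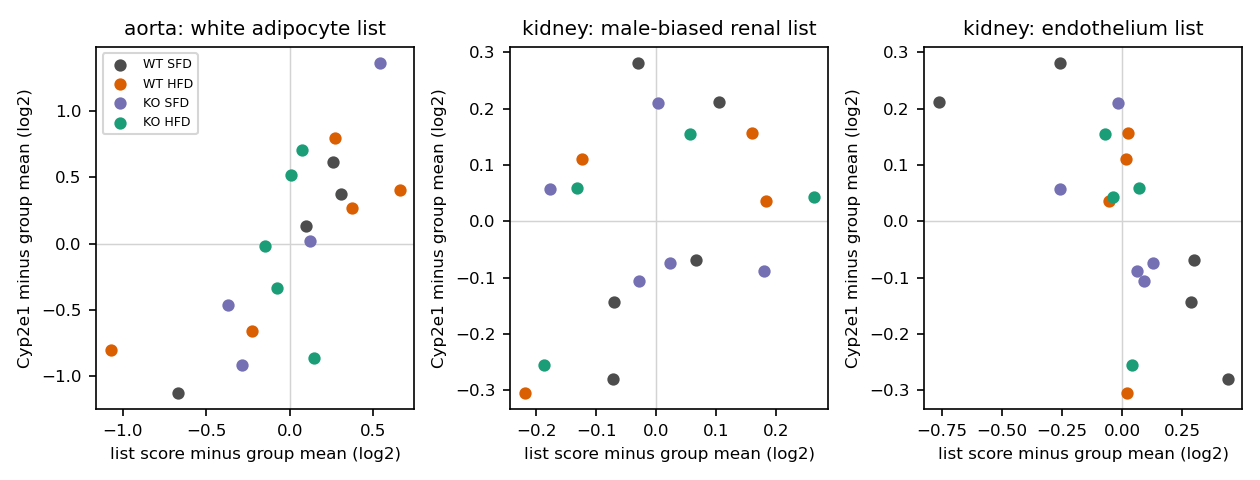
Deviation of Cyp2e1 from its group mean (vertical axes, log2) against that of a list score (horizontal axes, log2) in 18 libraries per panel, coloured by group: white adipocyte list in aortas, male-biased and endothelium lists in kidneys. The points rise from left to right in the first panel (r = 0.749), scatter in the second (r = 0.379) and fall in the third (r = -0.629).

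The 100 highest followers of the 2 tissues shared 2 genes, Ces1d and Gm21691, which is 2.0% of each list. Among the 100 renal followers, 78 had lower means under HFD in WT and 64 in KO, where 51.5% and 50.5% of all genes were lower. Among the 100 aortic followers, 54 were lower in WT and 71 in KO, where 46.0% of all genes were lower in WT and 6603 of 13195 in KO. The median log2 fold change of the aortic followers under HFD was -0.01 in WT and -0.10 in KO.

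The genes next to Cyp2e1 on chromosome 7 were mostly too low to test. Of 16 annotated genes within 100 kb, 5 are olfactory receptor genes or pseudogenes, 3 could be tested in aortas and 6 in kidneys, and 0 had an adjusted p under 0.05 for HFD in either genotype with edgeR, where 6.71% and 6.34% of all renal genes did. With so few genes, nothing is read from this count. Scgb1c1, a secretoglobin at a mean of 0.345 FPM, had -0.06 in WT and -0.84 in KO kidneys (adjusted p = 0.296 in edgeR). Syce1, a meiosis gene and the nearest at 2242 bases, was below 0.1 FPM on average in both tissues. Sirt3, a mitochondrial deacetylase, had 84.9 FPM in kidneys and log2 fold changes of -0.20 and -0.12, and Urah, the urate pathway hydrolase, -0.45 and -0.33 (adjusted p = 0.296 and 0.465 in edgeR).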

How the data were processed

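Counts per gene, deposited by the authors without normalization, were used for 20 aortic and 20 renal libraries. Per the submitters' processing notes, reads were mapped to mm10 with HISAT2 2.1.0 (the study's methods name TopHat2) and counted with featureCounts. Strand setting and multi-mapping reads are not given in the sources used here. Groups came from the labels. Each tissue was fitted in edgeR 4.0.16 (R 4.3.3) with TMM, filterByExpr by group, a robust quasi-likelihood test and Benjamini-Hochberg adjustment over all genes tested. A change under HFD needed an adjusted p under 0.05, a fold change over 1.5 and over 5 FPM in a group, and a genotype effect an adjusted p under 0.05. Single values used exact permutation tests of log2(FPM + 0.5), and followers were compared above a mean of 1 FPM. Named followers are the 10 highest and 5 lowest by r; list genes are called members and examples by abundance. Cyp2e1, the 22 lists and the tests were chosen with earlier results of these data known. On simulated counts, 4-fold changes were recovered for 94% of genes in the aortic and 98% in the renal HFD comparison in WT, and 2-fold changes for 61% and 85%. Alternatives were other normalization, DESeq2 1.42.0, filters, samples, pseudocounts and covariates. Shares over all genes are from edgeR, so nothing is read from the counts of list genes called by DESeq2. Whether libraries came from separate mice rests on the labels, so p-values measure the spread between these libraries. Depth is 17520161 to 48833447 counts, and count intervals cover counting error only. Some genes of the lists are not reported here.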

Additional observations from a re-analysis of the deposited data

Results flagged for a closer look

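Groups of 5 libraries were checked for the level of Cyp2e1 and the summed levels of the lists whose scores were compared with it, 4 in aortas and 8 in kidneys. Of 56 such groups, 2 held a library far from the others. Chance alone would give about 1 in 20 groups, so this count is no higher than chance would give. The summed level of the 7 macrophage genes was 2356 FPM in the KO HFD aorta R-16 and 432 to 665 FPM in the other 4 aortas of that group. In a list outside that check, 6 lymphoid genes summed to 216 FPM in R-16 and to 10.7 to 21.3 FPM in the others of its group, and to 120 FPM in the KO SFD aorta R-11 and 14.8 to 22.7 FPM in its group. R-16 also had the lowest Cyp2e1 of all 40, 0.328 FPM from 6 counts. Immediate-early genes summed to 2027 FPM in the WT SFD kidney a17 and to 78.6 to 103 FPM in the other 4 kidneys of its group, and a17 had the lowest Cyp2e1 of that group, 1738 FPM. No group of Cyp2e1 values itself held such a library. Each library of these comparisons, R-16 and a17 included, was left out in turn. The log2 fold change under HFD then stayed between -3.15 (without R-18) and -2.45 (without R-14) in KO aortas. In WT kidneys it stayed between -1.12 (without a12) and -0.93 (without a14).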

How the results depend on the processing

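All 120 fits without 1 replicate kept the direction of the Cyp2e1 comparisons, and those in kidneys, which were tested, kept their side of the threshold. Their log2 fold changes under HFD ranged from -3.81 to -3.30 in WT aortas, -3.15 to -2.45 in KO aortas, -1.12 to -0.93 in WT kidneys (adjusted p from 2.56e-05 to 0.000447 in edgeR) and -0.83 to -0.68 in KO kidneys (0.00102 to 0.00532). For KO against WT they ranged from -1.71 to -1.09 under SFD and -0.95 to -0.35 under HFD in aortas, and from -0.25 to -0.11 and 0.00027 to 0.18 in kidneys. DESeq2 size factors, the DESeq2 Wald test, other filters, the compared groups alone, other pseudocounts and leaving out the near-identical libraries or a17, a8 and a9 changed no Cyp2e1 call in kidneys and no direction in aortas. Covariates moved values. In WT aortas the HFD effect was -2.18 with the white adipocyte score and -2.44 with Cfd and Retn left out of it. In kidneys the calls were lost with the male-biased score (-0.48 in WT, -0.32 in KO). The calls were also lost with the female-biased score, added after the data were seen (-0.94 and -0.70). Both renal scores separate the same libraries as diet, so their parts cannot be told apart, and the cause was not tested. List counts moved by over 1.5 times in 15 of 88 cases with the adjusted p alone, 9 of 88 with DESeq2, 4 of 88 without the near-identical libraries and 6 of 44 without a17, a8 and a9. DESeq2 called 8 immediate-early genes in KO kidneys where edgeR called 0. With all 20 libraries, 13 of 34 follower values moved. No paired analysis was possible because the library numbers are shared by no 2 groups of a tissue. Aortic HFD values of 6 to 56 counts limit the precision of Cyp2e1 there.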
